A study of Mus musculus with 6 samples.

Results

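The genes of RNA polymerase I and of the factors that bring it to ribosomal DNA were followed in mouse embryonic stem cells in which Nat10 was knocked down. The 10 genes were taken by name from the table of 31641 genes: the subunit genes Polr1a, Polr1b, Polr1c, Polr1d and Polr1e, the initiation factor genes Rrn3, Ubtf, Taf1b and Taf1d, and Tcof1. All 10 were in the table and all 10 had enough counts to be tested, with 651 to 14843 counts per library. The genes were taken by name and role, with no value in the rule, though earlier results of these data were known.

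Per the study's design text, messenger RNA was captured by its poly(A) tail, and 6 libraries were sequenced from E14, an established line of mouse embryonic stem cells. The 3 KD libraries came from cells labelled Nat10 KD and given doxycycline, and the 3 CON libraries from cells labelled Nat10 WT without doxycycline. No CON library received doxycycline, so an effect of the drug and one of the knockdown cannot be told apart. The labels do not say how doxycycline lowers Nat10, whether the cells are 1 clone, how long they were treated, or whether replicates were separate cultures. P-values therefore measure the spread between these libraries, which may be technical.

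RNA polymerase I transcribes a single kind of gene, the repeated ribosomal DNA in the nucleolus, into the long precursor of the ribosomal RNAs. UBTF coats the ribosomal DNA, the SL1 complex of TBP and TAF1 proteins marks its promoter, and RRN3 joins the polymerase to SL1. Fast-growing cells such as embryonic stem cells make much ribosomal RNA. In people, mutations of TCOF1, POLR1B, POLR1C or POLR1D cause Treacher Collins syndrome, a disorder of the developing face. The ribosomal RNA itself has no poly(A) tail and was not measured here, so the data show the messenger RNAs of the machinery and not its activity.

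Library totals ran from 33770755 to 39524273 counts. Levels are given as TMM-scaled CPM, counts scaled to a common library size in which TMM, edgeR's default, sets most genes level between libraries. Means carry their SD over the 3 libraries of a group. Fold changes are KD over CON on the log2 scale with their standard error (SE). Nat10, which encodes a nucleolar RNA acetyltransferase, had 26.2, 27.2 and 28.7 CPM in the KD libraries, against 146, 151 and 149.9 CPM in the CON libraries, a log2 fold change of -2.44. All 10 embryonic stem cell markers looked at were present but lower, with a summed level of 2535 to 2639 CPM in KD and 7228 to 7254 CPM in CON. Of 9 fibroblast markers, which a feeder layer would bring, 3 rose and 2 fell among the 5 with enough counts. Their summed level was 60.8 to 66.5 CPM in KD and 36.0 to 40.5 CPM in CON, Dcn and Lum had no row in the table, and Col3a1 averaged 0.0182 CPM in KD and 0.0682 CPM in CON. Of 8 neuron markers, 4 rose and 2 fell, with a summed level of 88.2 to 96.2 CPM in KD and 147 to 150.1 CPM in CON. The part of a changed cell state in the values below was not tested, and in bulk RNA fewer cells of a type and less RNA per cell cannot be told apart. Among the replicates, KD-3 stood farthest from the others of its group. The chi-square per gene was 14.6 between KD-3 and KD-1 and 10.9 between KD-3 and KD-2, against 2.99 between KD-1 and KD-2 and 2.69 to 5.07 among the CON pairs.

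Of the 10 genes, 6 were lower in KD, 1 was higher and 3 did not pass, by edgeR's quasi-likelihood test with an adjusted p under 0.05. Tcof1 and Ubtf fell by more than 2-fold, Rrn3 fell by 1.46-fold, and the subunit genes Polr1a, Polr1b and Polr1d fell by 1.11-fold to 1.25-fold. Polr1e rose 1.3-fold, and Polr1c, Taf1b and Taf1d did not pass. The 6 lower genes were also those whose KD libraries all lay under the CON libraries, a pattern that 32.8% of all genes tested showed, and Polr1e alone lay wholly above, as did 34.4% of all genes (67.1% for either direction). Over all 18019 genes tested, 30.8% were called lower and 32.2% higher, so that 63.0% were called in some direction. The share of 7 called genes in 10 lies near that background. Falls past 2-fold were made by 7.11% of all genes, and by 2 of these 10. The median log2 fold change was -0.21 over the 10 genes and 0.02 over all genes.

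Which of the small changes were called depended on how the libraries were scaled. TMM factors were 1.08 to 1.084 in KD and 0.9222 to 0.9265 in CON. Without them, with libraries scaled by their totals only, the median log2 fold change of all genes moved up by 0.23, to 0.25, and 19.6% of genes were called lower and 46.0% higher. Under that scaling Tcof1, Ubtf and Rrn3 stayed lower and Polr1e stayed higher. Polr1a (log2 fold change -0.05) and Polr1b (-0.09) no longer passed, Polr1d turned to 0.08 without passing, and Polr1c (0.20) and Taf1b (0.32) were called higher. Changes below are with TMM scaling, relative to most genes.

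**Figure D1:**
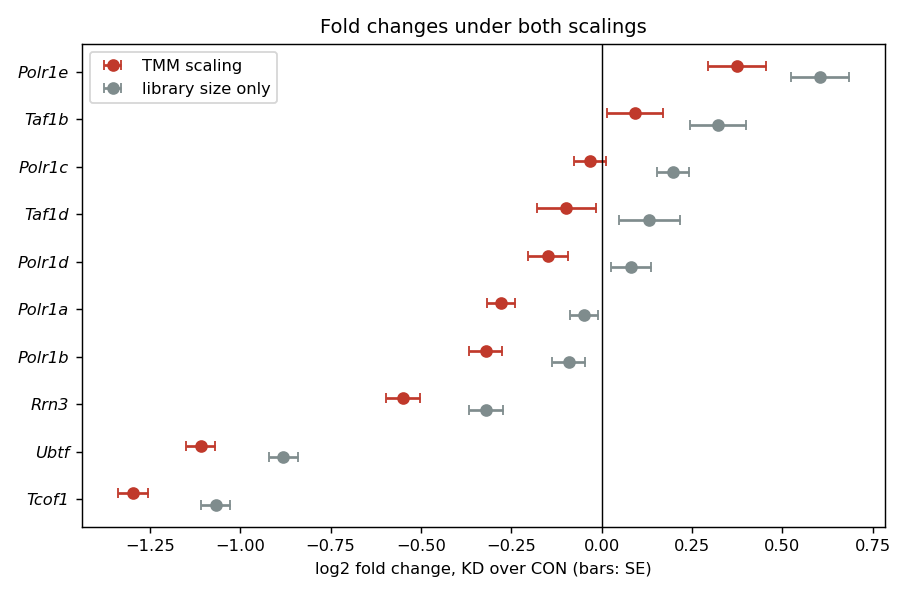
Log2 fold change of each of the 10 genes, KD over CON (horizontal axis, SE as bars), with TMM scaling (red) and with libraries scaled by total counts only (grey). Tcof1, Ubtf and Rrn3 lie left of 0 and Polr1e right of 0 under both scalings, while Polr1c, Polr1d and Taf1d lie left of 0 with TMM and right of 0 with library size only.

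Tcof1 showed the largest change of the 10. It encodes treacle, a nucleolar protein that binds UBTF and RNA polymerase I at the ribosomal DNA. The gene (ENSMUSG00000024613) spans bases 60813755 to 60848971 of chromosome 18, on the reverse strand (positions here are those of GENCODE M21 on GRCm38). It had 164, 168 and 161 CPM in the KD libraries 1 to 3, against 401, 408 and 403 CPM in the CON libraries 1 to 3, an order kept below. Every KD library lay below every CON library, and within each group the libraries differed by less than 10 CPM. The log2 fold change was -1.30 (SE 0.0408), a 2.46-fold lower level in KD (edgeR adjusted p = 1.02e-12).

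Ubtf, which encodes the architectural factor that binds along the ribosomal DNA and keeps it open for transcription, was 2.16-fold lower in KD. It spans bases 102304560 to 102319742 of chromosome 11, reverse strand (ENSMUSG00000020923). Its level was 146, 145 and 147 CPM in the KD libraries, against 312, 316 and 315 CPM in the CON libraries. These were the tightest replicates of the 10 genes in KD, with an SD of 0.954 CPM. The log2 fold change was -1.11 (SE 0.0405, edgeR adjusted p = 4.83e-12). The table counts whole genes, so the UBTF isoforms that differ in their HMG boxes were not told apart.

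Rrn3 encodes the factor, also called TIF-IA, that makes the polymerase able to start and that growth signals switch on and off by phosphorylation. It spans bases 13780708 to 13814839 of chromosome 16, forward strand (ENSMUSG00000022682). Its level was 122, 124 and 132 CPM in KD, against 183, 189.6 and 180.3 CPM in CON. The groups did not overlap, and KD-3 was the highest KD library. The log2 fold change was -0.55 (SE 0.047, edgeR adjusted p = 6.67e-08).

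The promoter windows of Rrn3, which fell, and of Polr1e, which rose, are shown so that the called members of opposite direction can be compared. RefSeq (GRCm38.p6) gave a window of 250 bases before to 50 bases after the start for 9 of the 10 genes. Tcof1 had no window and was not searched. The Rrn3 window is chr16:13780449-13780748 and the Polr1e window is chr4:45018359-45018658, both on the forward strand. Capitals mark matches to any of 6 short motifs searched on both strands: CACGTG (the E-box that MYC and USF proteins bind), CGGAAG (the core bound by ETS factors), GGGCGG (the GC box of SP1), TATAAA (the TATA box), the palindrome TCGCGA, and GCATGCG (the core bound by NRF1).
Rrn3: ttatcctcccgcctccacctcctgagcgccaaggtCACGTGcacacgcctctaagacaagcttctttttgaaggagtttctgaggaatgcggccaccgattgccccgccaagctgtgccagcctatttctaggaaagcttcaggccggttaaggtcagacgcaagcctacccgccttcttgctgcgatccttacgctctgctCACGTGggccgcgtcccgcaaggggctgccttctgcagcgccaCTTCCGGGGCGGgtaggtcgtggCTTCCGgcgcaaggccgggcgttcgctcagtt
Polr1e: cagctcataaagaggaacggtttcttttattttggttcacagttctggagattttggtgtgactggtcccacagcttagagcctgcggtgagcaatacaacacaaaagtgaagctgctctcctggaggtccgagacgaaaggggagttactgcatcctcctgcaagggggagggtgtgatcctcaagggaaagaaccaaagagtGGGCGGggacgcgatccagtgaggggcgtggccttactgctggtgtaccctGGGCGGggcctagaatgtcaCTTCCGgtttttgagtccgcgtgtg
The Rrn3 window held CACGTG at -215 and -48 bases from the start, counted from the motif's first base on the printed strand, with the start at 0. No window of the other genes searched held it. It was in 7.15% of all 32851 windows and in 9.51% of the windows of tested coding genes, the class the 9 genes belong to. The reverse complement of CGGAAG stood in both printed windows, once near the start of Polr1e and in a pair of places in Rrn3. CGGAAG was in a window of 4 of the 9 genes and in 16.9% of all windows, or 27.5% of those of tested coding genes. GGGCGG was found in a window of 6 of the 9 genes and in 35.7% of all windows, or 60.1% of those of tested coding genes. TATAAA was in none of the 9 and in 13.6% of all windows, or 7.35% of those of tested coding genes. TCGCGA was in the window of Polr1c and in 2.5% of all windows (4.42% for tested coding genes), and GCATGCG was in a window of Ubtf and in 3.58% (5.82% for tested coding genes). Ubtf had 6 windows, which raises its chance of a match. A match is a run of letters and no evidence that a factor binds there.

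The large catalytic subunits of the polymerase fell slightly. Polr1a, which encodes the largest subunit and forms the active site together with the product of Polr1b, had 268, 275 and 269.9 CPM in KD, against 325, 330.2 and 329 CPM in CON. Polr1b, the gene of the second largest subunit, had 88.4, 88.9 and 91.5 CPM in KD, against 112, 113 and 110.1 CPM in CON. In both genes every KD library was below every CON library. The log2 fold change was -0.28 for Polr1a (SE 0.0393, edgeR adjusted p = 1.61e-05) and -0.32 for Polr1b (SE 0.046, edgeR adjusted p = 1.86e-05). Both calls were lost with libraries scaled by size only, at an edgeR adjusted p of 0.29 and 0.0941. Polr1a spans bases 71909053 to 71984935 of chromosome 6 and Polr1b bases 129100995 to 129126594 of chromosome 2, both forward (ENSMUSG00000049553 and ENSMUSG00000027395). No source used here states whether reads were counted by strand, and 185 exonic bases of Polr1a overlap the antisense gene Gm26628, which had 99 to 144 counts per KD library and 95 to 115 per CON library.

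Polr1c and Polr1d encode a pair of assembly subunits that RNA polymerase I shares with RNA polymerase III, the enzyme of transfer RNA and 5S ribosomal RNA genes. Polr1c had 174, 176 and 178 CPM in KD, against 172, 182 and 184 CPM in CON. The groups overlapped and Polr1c did not pass (log2 fold change -0.03, SE 0.0442, edgeR adjusted p = 0.564), with a 95% interval of -0.13 to 0.06. Polr1d had 57.0, 62.2 and 60.1 CPM in KD, against 67.7, 66.9 and 64.0 CPM in CON. Its groups did not overlap but came within 2 CPM of each other, and the fall was 1.11-fold (SE 0.0552 around a log2 fold change of -0.15, edgeR adjusted p = 0.0298). The call was lost without KD-1 (edgeR adjusted p = 0.105), without CON-1 (0.0762) and without CON-2 (0.0868). Polr1c spans bases 46243920 to 46248054 of chromosome 17 (reverse) and Polr1d bases 147077050 to 147111597 of chromosome 5 (forward) (ENSMUSG00000067148 and ENSMUSG00000029642).

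Polr1e was the member that rose. Its product, the mammalian counterpart of yeast A49, forms a dimer with the product of Cd3eap at the edge of the polymerase and helps it start and elongate. Polr1e had 27.1, 25.6 and 23.7 CPM in KD, against 19.1, 18.6 and 21.4 CPM in CON. Every KD library was above every CON library, with KD-3 the lowest of KD and CON-3 the highest of CON. The log2 fold change was 0.37 (SE 0.0812, edgeR adjusted p = 0.000859). It spans bases 45018583 to 45036565 of chromosome 4, forward strand (ENSMUSG00000028318).

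Taf1b and Taf1d encode subunits of SL1, the complex that recognises the ribosomal DNA promoter, and TAF1B also resembles the general factor TFIIB. Taf1b had 32.4, 32.4 and 38.5 CPM in KD, against 32.4, 30.7 and 33.8 CPM in CON. Taf1d had 65.2, 65.8 and 82.2 CPM in KD, against 82.4, 70.2 and 75.3 CPM in CON. In both genes KD-3 was the highest KD library and the groups overlapped. Neither passed, with a log2 fold change of 0.09 (SE 0.0772, 95% interval -0.07 to 0.26, edgeR adjusted p = 0.313) for Taf1b and -0.10 (SE 0.0829, 95% interval -0.27 to 0.08, edgeR adjusted p = 0.324) for Taf1d. Without KD-3, the log2 fold change of Taf1b was 0.0011 and Taf1d was called lower at a log2 fold change of -0.22 (edgeR adjusted p = 0.000691). Taf1b spans bases 24498359 to 24558539 of chromosome 12 and Taf1d bases 15306214 to 15316991 of chromosome 9, both forward (ENSMUSG00000059669 and ENSMUSG00000031939). Annotated exons of Taf1d contain 8 snoRNA and 2 miRNA genes, none with a row of its own, and share 235 bases with 4931406C07Rik and 77 with Cep295 on the other strand. The strand option and the treatment of reads shared between genes are not stated. Whether reads of these genes entered the Taf1d counts at those bases therefore cannot be told. The gene 4931406C07Rik had 1278 to 1340 counts per KD library and 668 to 731 per CON library.

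**Figure D2:**
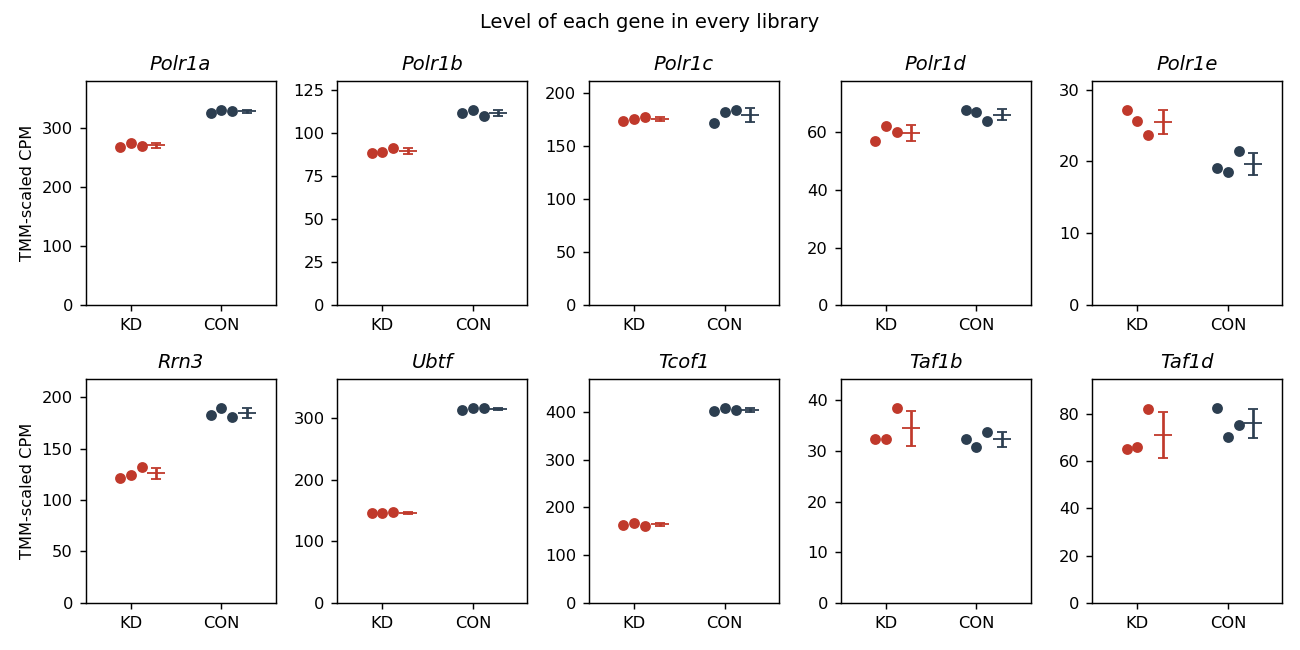
TMM-scaled CPM of the 10 genes in each library (points), KD left of CON, with mean and SD (n = 3) beside the points. The groups lie far apart for Tcof1 (161 to 168 CPM in KD, 401 to 408 CPM in CON) and Ubtf, and overlap for Polr1c, Taf1b and Taf1d.

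Ratios between genes of the same library do not depend on the scaling, and they show unequal change without showing which gene changed. Polr1a, the catalytic subunit, served as the common divisor. For each count of Polr1a there were 0.608 ± 0.00842 counts of Tcof1 in KD and 1.23 ± 0.0071 in CON (SD, n = 3 each). The Ubtf ratio was 0.539 ± 0.0091 in KD and 0.959 ± 0.00226 in CON. The Rrn3 ratio was 0.465 ± 0.0199 in KD and 0.562 ± 0.0134 in CON. All 3 ratios were lower in every KD library than in any CON library.

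The other ratios went the opposite way or overlapped. The Polr1e ratio was 0.0942 ± 0.00677 in KD and 0.0600 ± 0.00449 in CON. That of Polr1c was 0.649 ± 0.00902 in KD and 0.547 ± 0.0152 in CON, and those of Polr1d and Taf1b were likewise higher in every KD library. Polr1b kept close to Polr1a, with a ratio of 0.331 ± 0.00756 in KD and 0.341 ± 0.00582 in CON, and its groups overlapped, as did those of Taf1d. The ratio of Tcof1 to Ubtf was 1.13 ± 0.0307 in KD and 1.28 ± 0.00702 in CON, so Tcof1 fell relative to Ubtf as well. Groups that did not overlap gave an exact two-sided permutation p of 0.1, the smallest that 3 against 3 libraries allow, and 0.13 adjusted over the 13 ratios computed. Of all other genes tested, 69.9% had a ratio to Polr1a that did not overlap between the groups.

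**Figure D3:**
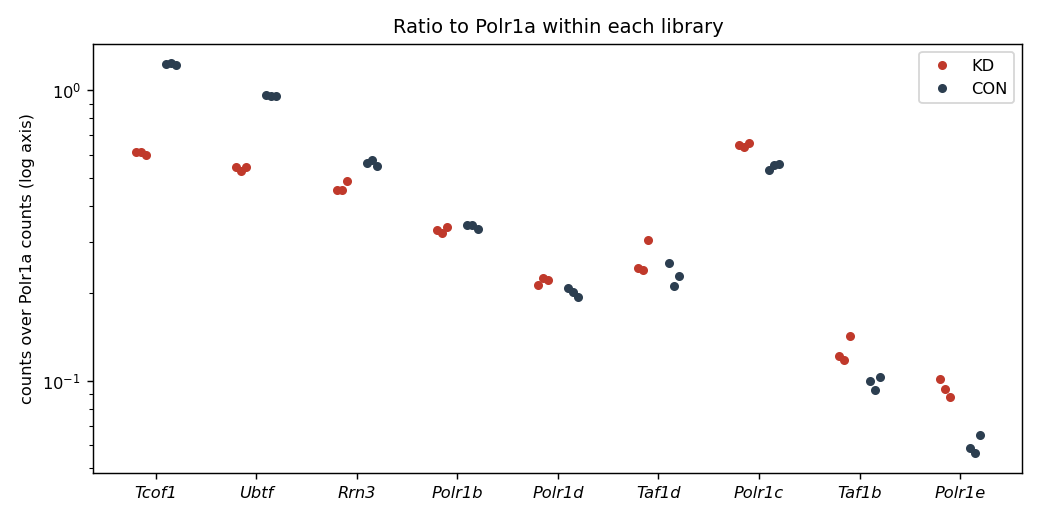
Counts of each gene over the counts of Polr1a in the same library (logarithmic axis), KD (red) left of CON (dark), 3 libraries each, ordered by the log2 difference. The ratios of Tcof1, Ubtf and Rrn3 are lower in all KD libraries, those of Polr1c, Polr1d, Taf1b and Polr1e are higher, and those of Polr1b and Taf1d overlap.

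Levels of different genes were compared per kilobase of the gene length that the deposited FPKM values imply. In KD the order was Polr1c (77.1 ± 0.86 CPM per kilobase), Tcof1 (31.2 ± 0.661), Rrn3 (29.2 ± 1.21), Polr1a (22.8 ± 0.299), Ubtf (22.3 ± 0.146), Polr1d (19.6 ± 0.857), Polr1b (15.4 ± 0.285), Taf1b (13.1 ± 1.34), Taf1d (7.94 ± 1.08) and Polr1e (6.54 ± 0.437). In CON Polr1c (78.8 ± 2.82 CPM per kilobase) and Tcof1 (76.7 ± 0.681) led with ranges that overlapped. Ubtf (48.0 ± 0.301) and Rrn3 (42.7 ± 1.1) followed, each apart from its neighbours. From Polr1a (27.6 ± 0.238) down, the CON order was the same as in KD except that Ubtf had no place there, and Polr1e was last at 5.05 ± 0.385. Thus Ubtf stood above Rrn3 and Polr1a in CON and below both in KD. Against Polr1a the margin in KD was small, at 22.3 and 22.8 CPM per kilobase. The order between genes rests on these gene lengths, which need not be those of the transcripts expressed. The Taf1d length of 8949 bases may include the exons that contain small RNA genes, which would then enter its divisor. The annotation behind that length is not stated, and this was not checked.

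**Figure D4:**
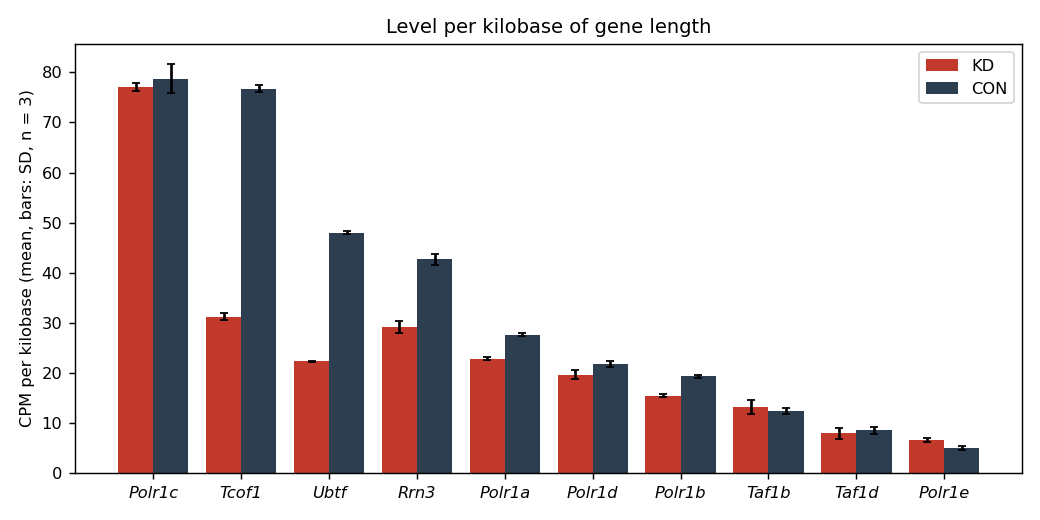
Level of the 10 genes in CPM per kilobase of gene length (bars from 0, mean of 3 libraries, SD), KD left of CON, ordered by the CON level. Tcof1 is level with Polr1c in CON and far below it in KD (31.2 against 77.1 CPM per kilobase).

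Twistnb, Znrd1 and Cd3eap, which encode further core subunits of the polymerase, fell 1.46-fold to 1.77-fold. All 3 were called lower, as were 30.8% of all genes tested, with a median log2 fold change of -0.78. They stayed lower with libraries scaled by size only, where 19.6% of all genes were called lower. Twistnb, whose product contacts RRN3, had 27.4 ± 0.828 CPM in KD and 46.8 ± 0.622 CPM in CON, a 1.71-fold fall (edgeR adjusted p = 2.35e-08). Znrd1, whose product helps the enzyme cleave RNA when it backtracks, had 24.5 ± 1.14 CPM in KD and 43.5 ± 0.538 CPM in CON, a 1.77-fold fall (edgeR adjusted p = 2.06e-08). Cd3eap, the dimer partner of Polr1e, had 24.6 ± 1.2 CPM in KD and 35.9 ± 4.36 CPM in CON, a 1.46-fold fall (edgeR adjusted p = 4.47e-05). The partners thus went in opposite directions. The ratio of Polr1e to Cd3eap counts, chosen after their values were seen, was 1.04 ± 0.0518 in KD and 0.553 ± 0.0687 in CON, with no overlap (exact permutation p = 0.1). The ratio of Rrn3 to Twistnb, chosen in the same way, was 4.61 ± 0.209 in KD and 3.94 ± 0.138 in CON and did not overlap either. That of Polr1c to Polr1d was 2.94 ± 0.111 in KD and 2.71 ± 0.167 in CON, and its groups overlapped.

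Among the partners of Taf1b and Taf1d in SL1, Tbp and Taf1a were called lower and Taf1c and Taf12 did not pass. The share of all genes tested that was called lower was 30.8%. Tbp, the TATA-binding protein that all 3 nuclear polymerases use, had 35.7 ± 2.2 CPM in KD and 49.5 ± 1.29 CPM in CON (edgeR adjusted p = 8.93e-06). Taf1a had 16.6 ± 1.44 CPM in KD and 20.6 ± 1.64 CPM in CON (edgeR adjusted p = 0.00644), a call lost with library size only. Taf1c had 28.1 ± 3.88 CPM in KD and 27.1 ± 2.73 CPM in CON, and Taf12 had 28.3 ± 1.17 CPM in KD and 28.3 ± 1.08 CPM in CON. With library size only, both of these were called higher, as were 46.0% of all genes.

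Subunit genes of the other polymerases went both ways, as did all genes tested, with 30.8% called lower and 32.2% higher. Of 5 subunit genes that polymerases I, II and III share, 3 fell and 1 rose, with a median log2 fold change of -0.16. Polr2e fell 1.55-fold to 189 ± 11.9 CPM in KD, against 294 ± 11.2 CPM in CON, while Polr2l rose 1.27-fold. Of 7 further genes of RNA polymerase II, 2 fell and 3 rose (median -0.04). Its catalytic pair split, with Polr2a falling 1.28-fold and Polr2b rising 1.42-fold. Of 11 genes of RNA polymerase III subunits, 3 fell and 2 rose (median -0.07). Polr3e and Polr3b both fell 1.33-fold, and Polr3gl rose 1.52-fold. Of 11 genes of that polymerase's transcription factors, among them its repressor gene Maf1, 6 fell and 2 rose (median -0.27). Gtf3a, which encodes the 5S gene factor TFIIIA, fell 1.76-fold, while Gtf3c1 rose 1.77-fold and Brf1 1.53-fold. With library size only, the median turned positive for the shared, polymerase II and polymerase III subunit lists. That of all genes moved to 0.25, with 19.6% of genes called lower and 46.0% higher. The calls were then 1 lower and 2 higher for the shared subunits, 1 and 5 for polymerase II, 3 and 7 for polymerase III, and 3 and 5 for the polymerase III factors (median -0.05).

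Of 21 factors of ribosomal DNA termination, silencing and chromatin, 12 were lower and 4 higher, with a median of -0.26. Of all genes tested, 30.8% were lower and 32.2% higher. The list also holds genes of nucleolar proteins with roles in ribosomal RNA processing, such as Ncl, Npm1 and Fbl. Ubtfl1, among the 12, averaged only 0.361 CPM in KD and 0.706 CPM in CON. With library size only, 9 of these 21 were lower and 9 higher, where 19.6% of all genes were lower and 46.0% higher. Ddx21, a helicase of ribosomal DNA transcription, had 175 ± 14.2 CPM in KD and 352 ± 7.5 CPM in CON, and the rRNA methyltransferase gene Fbl had 178 ± 4.14 CPM in KD and 296 ± 13.4 CPM in CON. Sirt1, a deacetylase, fell 2.18-fold. Sirt7, a nucleolar deacetylase known to promote RNA polymerase I transcription, rose 1.92-fold to 34.3 ± 4.42 CPM in KD, against 17.9 ± 1.76 CPM in CON (edgeR adjusted p = 6.28e-07). The histone methyltransferase gene Suv39h1 rose 1.45-fold, and Kdm2a and Nop53 both rose 1.13-fold.

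Of 19 genes of kinases and growth regulators that act on RRN3 or UBTF or on their genes, 13 fell, 3 rose and 3 did not pass, against 30.8% lower and 32.2% higher of all genes. With library size only, 5 of the 19 fell and 6 rose, against 19.6% lower and 46.0% higher of all genes. Myc, which drives genes of the polymerase I machinery, fell 2.41-fold to 15.0 ± 1.62 CPM in KD, against 36.2 ± 0.9 CPM in CON (edgeR adjusted p = 2.89e-09). Cdk2, a kinase that acts on UBTF, fell 1.73-fold, and Trp53, which encodes the repressor p53, fell 2.05-fold. The 3 that rose were Rb1 (1.42-fold), Cdkn2a (1.51-fold) and Prkaa1 (1.48-fold), whose products RB, ARF and AMPK are known to hold ribosomal RNA synthesis down.

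**Figure D5:**
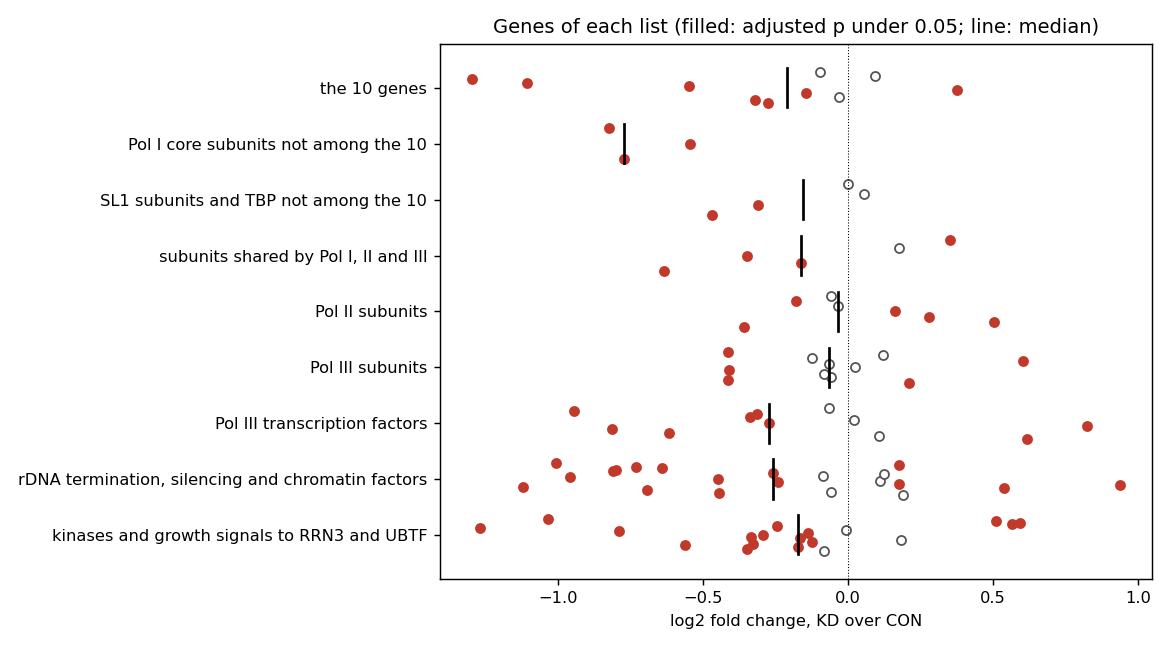
Log2 fold change, KD over CON, of each gene of the 10 and of the 8 further lists (points), filled where the edgeR adjusted p is under 0.05, with the list median as a black line. All 3 further core subunits lie left of 0 at a median of -0.78, while the polymerase II and III subunits spread to both sides.

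In the authors' deposited table, whose fold change runs CON over KD, the log2 values were 1.31 for Tcof1, 1.12 for Ubtf, 0.56 for Rrn3 and -0.36 for Polr1e. That table gave adjusted p-values of 0.685 for Polr1c, 0.637 for Taf1b and 0.459 for Taf1d. Once the sign is turned, each of the 10 values of that table had the direction found here. Those values belong to the same libraries, so the shared direction is no independent evidence.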

How the data were processed

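The deposited table holds the authors' raw counts for 6 libraries, as its headers say. Per the submitters' processing notes, FastQC 0.11.9, STAR 2.5.3a, featureCounts and mm10 were used; what was used here states no gene annotation, strand option or treatment of reads with several hits. The deposited FPKM values were the authors' counts over gene length and library total, and gave the gene lengths. The authors' deposited log2 fold changes and adjusted p-values were only quoted. Positions came from GENCODE M21, where 99.7% of identifiers were found.

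The quasi-likelihood fits used edgeR 4.0.16 (R 4.3.3), with filterByExpr (18019 genes kept), TMM scaling and robust dispersion. P-values were adjusted over all genes by Benjamini-Hochberg, at 0.05. The SE is the log2 fold change over the square root of F. The procedure was tested on simulated data. Library totals of 33770755 to 39524273 leave little counting error for these genes. Between 70.0 and 71.7% of counts from 1 to 20 were even, so counts were also divided by 2 as an alternative.

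Members, lists and alternatives were chosen with earlier results of these data known. The text names all 10 members, all further polymerase I and SL1 subunits, and up to 3 genes per direction of each other list by smallest p, plus list genes of 50 CPM or more called against most of their list; of these, the examples with clearest known roles are given. Other scalings, filters, DESeq2 1.42.0, limma 3.58.1 (voom), a replicate block and leaving out libraries were tried.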

Additional observations from a re-analysis of the deposited data

How the results depend on the processing

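The log2 fold changes of the 10 genes were recomputed under 15 alternatives. Tcof1 (-1.32 to -1.07), Ubtf (-1.13 to -0.88), Rrn3 (-0.59 to -0.32) and Polr1e (0.32 to 0.60) kept their direction and passed in all 15. With library size only, 3 of the 10 were called lower and 3 higher, and 3535 of all genes were called lower and 8280 higher. The log2 fold change was then -0.0486 for Polr1a, -0.0916 for Polr1b, 0.20 for Polr1c, 0.0818 for Polr1d, 0.32 for Taf1b and 0.13 for Taf1d. With upper-quartile factors, Polr1c was at 0.0082 and Polr1d at -0.11, without passing. With library size only, the median log2 fold change turned to 0.0166 for the 10 genes and 0.0728 for the SL1 list. It was 0.0673 for the shared subunits, 0.19 for polymerase II, 0.16 for polymerase III and 0.0569 for the kinases and growth regulators. That of polymerase II was 0.0032 with upper-quartile factors. These list medians lay below that of all genes, which was 0.25 with library size only and 0.06 with upper-quartile factors. Taf12 turned to 0.23, Polr2f to 0.0673 and Polr2i to 0.0495 with library size only. Taf12 was 0.0384 with upper-quartile factors and 0.001 with no filter, and its leave-one-out range was -0.0391 to 0.0206. Leaving out libraries, Taf1c ranged from -0.0223 to 0.16, and it was 0.28 with library size only. Leaving out each library in turn gave 5 to 7 of the 10 called lower and 1 higher. Of all genes, 5136 to 5862 were then called lower and 5247 to 5944 higher. Polr1d ranged from -0.18 to -0.12 and Taf1d from -0.22 to -0.0451. The same-numbered libraries' deviations correlated at -0.0608, 0.0151 and -0.0387, so no pairing by replicate number was seen. The highest value, 0.0841, was between KD-3 and CON-1. Such correlations cannot show whether same-numbered libraries shared a culture or a day. With the replicate number as a block, Polr1d was at -0.15 and did not pass (edgeR adjusted p = 0.0613), and the block gave 5347 of all genes lower and 5559 higher.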

Other observations

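Some of the 10 genes start next to another gene. All genes on the other strand that start within 1000 bases of a member's start were looked at, a choice made after the members' values were seen. Yipf3 starts 26 bases from Polr1c, head to head, and encodes a Golgi protein. Yipf3 had 151 ± 18 CPM in KD and 67.4 ± 1.31 CPM in CON (log2 fold change 1.17, SE 0.071, edgeR adjusted p = 1.46e-09), while Polr1c did not pass. Ptcd3, which encodes a protein of the mitochondrial ribosome and starts 303 bases from Polr1a, had 120.2 ± 10.6 CPM in KD and 183 ± 8.77 CPM in CON (log2 fold change -0.61, edgeR adjusted p = 3.58e-07). Lnx2 starts 464 bases from Polr1d and had 39.7 ± 1.32 CPM in KD and 36.0 ± 1.78 CPM in CON (edgeR adjusted p = 0.0677). The start of 4931406C07Rik lies 234 bases from that of Taf1d, with overlapping ends, and that gene had 32.4 ± 2.33 CPM in KD and 20.3 ± 1.67 CPM in CON (log2 fold change 0.68, edgeR adjusted p = 2.74e-06). The difference in change within a pair was not tested.

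For each member, the listed gene with the most similar profile was found as the smallest root mean square distance of centred log2 CPM over the 6 libraries, among 91 genes. Polr1b was nearest to Polr1a, at a distance of 0.0315, and Polr1a to Csnk2a2, a casein kinase 2 subunit gene, at 0.0278. Ubtf was nearest to Sirt1 at 0.0235, Tcof1 to Myc at 0.0826, Rrn3 to Tbp at 0.0501 and Polr1e to Polr2c at 0.0837. Polr1c was nearest to Polr3c at 0.0367 and Polr1d to Mapk9 at 0.0263. Taf1b was nearest to Cdk7 at 0.069 and Taf1d to Rps6kb1 at 0.0745. All these profiles share the same 6 libraries. Across KD and CON, a short distance largely reflects a similar log2 fold change, such as -1.11 for Ubtf and -1.12 for Sirt1, or -1.30 for Tcof1 and -1.27 for Myc. Only the 91 listed genes could be named as nearest, and shared regulation was not tested.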
